A study of Mus musculus with 30 samples.

Results

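The transcripts of 7 subunits of the GABA-A receptor were followed in ribosome-associated RNA from both main classes of medium spiny neuron of the mouse nucleus accumbens. The genes were Gabra2, Gabra4 and Gabra5, which encode the alpha2, alpha4 and alpha5 subunits, Gabrb1 and Gabrb2 (beta1 and beta2), Gabrd (delta) and Gabrg3 (gamma3). They were taken by name from the 55335 genes counted. The annotation holds 19 genes of the family. All 7 passed the filter on low counts.

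The libraries came from female mice carrying RiboTag (RT), a ribosomal protein with an HA tag that Cre switches on. D1-Cre-RT mice carry the tag in neurons that express the D1 dopamine receptor, and A2A-Cre-RT mice in neurons that express the adenosine A2A receptor, whose libraries the titles call D2. Beside unstressed Control mice, others saw repeated defeats of another animal (chronic witness defeat stress, CWDS) and were labelled Resilient or Susceptible from their social interaction scores, which gave 6 groups of 5 libraries (30 in all). The nucleus accumbens was punched 24 h after the social interaction test, and a library pools 4 mice with similar scores, so a value describes a pool and not an animal. Cre lines of this kind mark a class by 1 promoter each, and RNA bound to ribosomes of unmarked cells can come down with the tagged ones. The labels do not give the ages of the mice.

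GABA-A receptors are chloride channels built of 5 subunits around a pore, and they carry most fast inhibition in the brain. The common form pairs alpha and beta subunits with a gamma subunit and sits at synapses, where benzodiazepines act between alpha and gamma. Receptors that hold delta, usually with alpha4 in the forebrain, sit outside synapses, answer to low ambient GABA and are sensitive to neurosteroids, and many alpha5 receptors also lie outside synapses. Medium spiny neurons are themselves GABAergic and receive GABA from each other and from local interneurons.

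The family is laid out in clusters (GRCm38, GENCODE M21). On chromosome 5, Gabra2 (70957597 to 71095849, minus strand) lies 473899 bp from Gabra4 (71569749 to 71658308, minus strand). Gabrb1 (71658113 to 72149037, plus strand) starts head to head with Gabra4, the gene spans overlapping by 196 bp. On chromosome 7, Gabrg3 (56716465 to 57387188, minus strand) lies 20483 bp from Gabra5 (57407672 to 57510059, minus strand). Gabrb2 (42419757 to 42629028, plus strand) is on chromosome 11 and Gabrd (155384980 to 155398112, minus strand) on chromosome 4. Of the exon bases, 46 are shared by Gabra4 and Gabrb1, which is 0.76% of the first and 0.33% of the second. Gabra5 shares 148 bases (4.98%) with Gm9962 on the other strand, so where the counting ignored strand, a small part of these counts could not be assigned to 1 gene.

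RefSeq promoters (GRCm38.p6) were matched by symbol for 6 of the 7 genes. The stretches ahead of 4 start sites are printed for genes called in the averaged comparison of the classes of neuron given below. Gabrd, also called there, had no match. Capitals mark the GC box GGGCGG, the CCAAT box and the TATA box TATAAA, each on either strand.
Gabra5, chr7:57510060-57510309, minus strand: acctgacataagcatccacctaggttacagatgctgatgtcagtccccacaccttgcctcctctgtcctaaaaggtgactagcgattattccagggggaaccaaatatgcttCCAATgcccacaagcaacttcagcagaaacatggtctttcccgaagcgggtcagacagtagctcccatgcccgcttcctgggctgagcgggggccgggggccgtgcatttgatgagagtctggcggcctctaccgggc
Gabrb2, chr11:42420190-42420439, plus strand: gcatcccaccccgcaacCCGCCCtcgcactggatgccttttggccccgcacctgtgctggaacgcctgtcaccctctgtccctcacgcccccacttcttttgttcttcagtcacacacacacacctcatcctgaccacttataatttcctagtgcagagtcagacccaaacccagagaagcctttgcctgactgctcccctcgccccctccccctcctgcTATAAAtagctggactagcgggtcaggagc
Gabra4, chr5:71658364-71658558, minus strand: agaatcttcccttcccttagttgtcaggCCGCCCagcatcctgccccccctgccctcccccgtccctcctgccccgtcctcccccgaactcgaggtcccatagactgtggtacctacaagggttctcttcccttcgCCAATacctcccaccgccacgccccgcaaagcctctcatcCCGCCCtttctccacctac
Gabra2, chr5:71095850-71096099, minus strand: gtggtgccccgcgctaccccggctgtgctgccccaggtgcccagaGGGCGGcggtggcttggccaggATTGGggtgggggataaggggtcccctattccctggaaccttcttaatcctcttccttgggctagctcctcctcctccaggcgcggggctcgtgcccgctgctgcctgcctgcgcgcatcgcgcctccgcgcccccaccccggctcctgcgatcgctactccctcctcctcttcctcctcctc
Each runs 5′ to 3′ toward the start site, and the Gabra4 stretch ends 55 bases short of it. Gabrb2 has 3 listed start sites, of which the one farthest upstream is shown. The motifs were searched in the whole 250 bases ahead of each start site, of which 195 are printed for Gabra4. In the same 250 bases of 32851 promoters, 32.7% hold the GC box, 33.9% the CCAAT box and 12.4% the TATA box. The searched cAMP-response element TGACGTCA, EGR sites GCGTGGGCG and GCGGGGGCG, E-box CACGTG and AP-1 site TGANTCA were not found in the windows of the 6 genes. They occur in 1.55%, 0.536%, 2.57%, 6.02% and 6.75% of all promoters. A match or its absence here describes letters only.

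The libraries held 28996168 to 65882152 gene counts and 15822 to 22375 detected genes. Drd1 ranged from 377 to 616 CPM (counts scaled to a common library size of 1000000, with TMM) in the D1 libraries and 50.3 to 414 CPM in the D2 libraries. Adora2a was 105 to 314 CPM in D1 and 491 to 1457 CPM in D2, so the classes separated on Adora2a, while the highest D2 library for Drd1, D2 Resilient replicate 5, overlapped D1. The libraries that stood apart were 4, a choice made with earlier results of these data known. D2 Susceptible replicates 1 and 2 had the fewest detected genes, 15822 and 16525. Their summed epidermal markers were 388 and 597 CPM, where no other library exceeded 60.5 CPM. D1 Susceptible replicate 1 had 41.2% of its reads outside genes, and 54.9% of its gene counts fell on Gm42418. D2 Resilient replicate 5 held D1 markers at 1858 CPM, the highest of the D2 libraries. D2 Control replicate 5 came next at 1236 CPM, ahead of 717 CPM in D2 Control replicate 3, and was not left out. Class and stress differences that rest on the 4 libraries are given with all 30 libraries and with the 26 that remain.

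Levels between genes can be compared only per length, and CPM was divided by the kilobases of annotated exon (CPM per kb). In D1, Gabrd was the highest of the 7 at 55.5 ± 6.04 CPM per kb (SD, n = 15 libraries of 3 groups). Gabra2 followed at 45.2 ± 9.24 and Gabra4 at 28.4 ± 3.68 CPM per kb. The transcripts of the extrasynaptic pair alpha4 and delta and of the synaptic alpha2 were thus the 3 most abundant of the 7 in D1 libraries. Gabra5 came next at 15.9 ± 1.78 CPM per kb, Gabrb1 at 12.5 ± 1.75, Gabrg3 at 6.61 ± 0.763 and Gabrb2 at 4.23 ± 3.12.

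In D2 libraries the order of the leading subunits was Gabra2 at 67.6 ± 38.4 CPM per kb and Gabrd at 63.8 ± 5.23, ahead of Gabra4 at 33.7 ± 4.65 CPM per kb. Most of the Gabra2 spread came from D2 Susceptible replicates 1 and 2, and its median was 50.6 CPM per kb, below that of Gabrd (63.8). Gabrb1 was 14.0 ± 5.14 CPM per kb and Gabra5 12.5 ± 2.21, followed by Gabrg3 at 6.91 ± 0.695. Gabrb2 was the lowest of the 7, at 1.84 ± 0.800 CPM per kb. With the length of the longest transcript in place of all exon bases, Gabra2 and Gabrd were both at 59.0 CPM per kb in D1, so the order of these 2 genes in D1 is not firm.

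**Figure D1:**
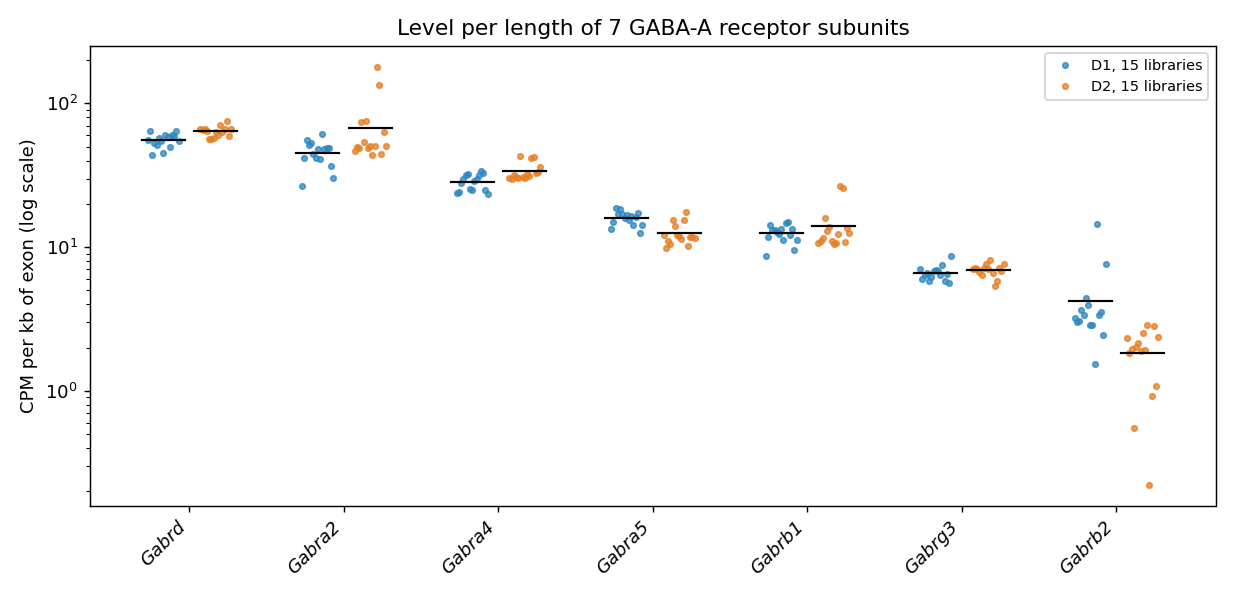
CPM per kb of exon (log scale) for the 7 subunits, with D1 libraries in blue, D2 libraries in orange (15 each) and the class mean as a line. Gabrd and Gabra2 lead in both classes, and Gabrb2 is spread over the widest range, from 0.223 to 14.4 CPM per kb.

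The first comparison asked which subunits differed between the classes of neuron, as D1 minus D2 averaged over the 3 groups. By edgeR's quasi-likelihood test, 5 of the 7 genes passed an adjusted p of 0.05, against 29.3% of the 19368 genes tested. Gabra5 and Gabrb2 were higher in D1 (13.8% of all genes were), and Gabra2, Gabra4 and Gabrd were higher in D2 (15.5% of all genes were). In bulk RNA, fewer cells of a type and less RNA per cell cannot be told apart. The D1 libraries also held more interneuron markers (330 to 530 CPM summed over 11 genes, against 85.0 to 314 CPM in D2) and cortical excitatory markers (510 to 982 CPM over 6 genes, against 174 to 574). The interneuron list did not move as a whole. In Control 6 of its 11 genes were called higher in D1, 1 lower (Th) and 4 not called, and in Resilient 6, 0 and 5. Of the 6 cortical markers, 5 were called higher in D1 and 0 lower in each of these groups. The D2 libraries held more endothelial markers (77.0 to 370 CPM over 8 genes, against 16.1 to 45.6) and more astrocyte markers (176 to 356 CPM over 8 genes, against 132 to 253). In the averaged comparison all 8 endothelial, 7 of 8 astrocyte, all 8 oligodendrocyte, all 4 oligodendrocyte precursor and 5 of 8 microglia markers were called higher in D2. The median log2 differences of these lists were -3.19, -1.43, -0.75, -1.02 and -0.66. Their part in the subunit differences was not tested.

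Gabra5 encodes an alpha subunit known for tonic inhibition and for its abundance in hippocampus. In D1 Control it was 40.1, 44.3, 55.9, 50.6 and 54.6 CPM in replicates 1 to 5, and in D2 Control 36.0, 29.2, 32.6, 31.2 and 46.1 CPM. In Resilient it was 50.9, 47.5, 49.97, 45.96 and 49.2 CPM in D1 against 42.1, 36.4, 35.3, 33.9 and 45.6 CPM in D2. The 5 Resilient D1 libraries all lay above the 5 D2 libraries, and in Control 3 of 5 D1 libraries lay above every D2 library. The share of all genes whose groups do not overlap was not counted, here or for the subunits below. In Susceptible it was 42.2, 48.0, 51.6, 37.1 and 42.6 CPM in D1 against 52.5, 30.4, 34.9, 34.8 and 34.6 CPM in D2, where D2 replicate 1 exceeded every D1 library. The averaged difference was 0.35 on the log2 scale (SE 0.0755, 1.28-fold, edgeR adjusted p 0.000544), and 0.42 without the 4 libraries (SE 0.066, edgeR adjusted p 8.31e-06). D2 Control replicate 5 and D2 Resilient replicate 5, the highest of their groups, were also the D2 libraries with the most Drd1 (247 and 414 CPM). D2 Susceptible replicate 1, the highest D2 library for Gabra5, had 74.4 CPM of Drd1. D2 Control replicate 3 had 147 CPM of Drd1 with 32.6 CPM of Gabra5. A link between the 2 genes was not tested.

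Gabrb2 encodes beta2, a subunit of synaptic receptors. It was the least abundant of the 7, at 66 to 2670 counts a library. In D1 Control it was 20.4, 19.3, 19.4, 23.3 and 21.5 CPM, and in D2 Control 14.8, 11.6, 12.5, 3.53 and 12.9 CPM. All 5 D1 Control libraries lay above all 5 D2 Control libraries. In Resilient the values were 28.3, 25.1, 18.3, 18.3 and 9.73 CPM in D1 and 13.7, 12.1, 16.2, 12.2 and 18.4 CPM in D2, which overlap. In Susceptible they were 91.7, 21.6, 22.6, 15.6 and 49.0 CPM in D1 and 1.42, 5.83, 18.0, 6.88 and 15.1 CPM in D2. D1 Susceptible replicate 1, with its reads outside genes, was the highest of all 30 libraries, and D2 Susceptible replicate 1 the lowest. The averaged difference was 1.14 (log2, SE 0.279, 2.21-fold, edgeR adjusted p 0.00268), and it was 0.83 without the 4 libraries (SE 0.221, edgeR adjusted p 0.00629).

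Gabra4 and Gabrd, whose proteins form the extrasynaptic receptor, were both higher in D2. Gabra4 was 144, 146, 171, 181 and 195 CPM in D1 Control against 183, 181, 192, 187 and 185 CPM in D2 Control. The D2 Control libraries were close together, with a coefficient of variation of 2.29%, and lay within the upper part of the D1 range. In Resilient, Gabra4 was 198, 155, 153, 175 and 182 CPM in D1 and 260.2, 187, 184, 197 and 190.4 CPM in D2, and 4 of the 5 D1 libraries lay below every D2 library. In Susceptible it was 193, 206, 199, 153 and 142 CPM in D1 and 252, 256, 199, 201 and 219.9 CPM in D2. Over the groups the difference was -0.24 (log2, SE 0.0642, 1.18-fold, edgeR adjusted p 0.00454), and -0.22 without the 4 libraries (SE 0.0637, edgeR adjusted p 0.00894).

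Gabrd showed the same direction at a similar size. It was 161, 183, 127, 152 and 148 CPM in D1 Control and 192, 189, 191, 183 and 162 CPM in D2 Control. In Resilient it was 165, 157, 129.7, 173 and 167 CPM in D1 against 163, 165, 182, 174 and 202 CPM in D2. In Susceptible it was 144, 174, 170.04, 185 and 158 CPM in D1 against 182, 190.1, 217, 169.8 and 190.2 CPM in D2. The classes overlapped in all 3 groups, with the D2 means higher each time (184, 177 and 189.7 CPM against 154, 158 and 166 CPM). The averaged difference was -0.20 (log2, SE 0.0538, 1.15-fold, edgeR adjusted p 0.00480), and -0.17 without the 4 libraries (SE 0.0548, edgeR adjusted p 0.0145).

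Gabra2, the alpha subunit of many synapses on medium spiny neurons, was also higher in D2 with all libraries. In D1 Control it was 202, 321, 427, 393 and 404 CPM, and in D2 Control 358, 378, 374, 566 and 414 CPM. In Resilient it was 338, 319, 367, 316 and 468 CPM in D1 and 573, 374, 387, 335 and 385 CPM in D2, so both groups overlapped between the classes. In Susceptible it was 369, 372, 374, 282 and 231 CPM in D1 and 1373, 1019.95, 338, 483 and 387 CPM in D2, with D2 replicates 1 and 2 far above the rest. The averaged difference of -0.53 (log2, SE 0.163, 1.44-fold, edgeR adjusted p 0.0153) did not pass without the 4 libraries, at -0.27 (SE 0.121, edgeR adjusted p 0.0951). With all libraries weighted by quality (limma voom) it was -0.13 (adjusted p 0.208).

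Gabrb1 and Gabrg3 did not pass. Gabrb1, a beta subunit gene, averaged 172 ± 24.3 CPM over 15 D1 libraries and 194 ± 71.2 CPM over 15 D2 libraries. Its difference was -0.14 (log2, SE 0.108, edgeR adjusted p 0.345) and 0.01 without the 4 libraries (SE 0.0740, edgeR adjusted p 0.917). Gabrg3, a gamma subunit of low abundance in most of the brain, was 78.9 ± 9.10 CPM over the D1 libraries and 82.5 ± 8.29 CPM over the D2 libraries. Its difference was -0.06 (log2, SE 0.0576, edgeR adjusted p 0.435), and -0.13 without the 4 libraries (SE 0.0542, edgeR adjusted p 0.0616). By limma voom with quality weights and all libraries it passed, at -0.16 (adjusted p 0.00219). A miss of the threshold does not show that these genes were at the same level in both classes. Without the 4 libraries the calls were 4 of the 7, against 30.6% of the genes tested.

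**Figure D2:**
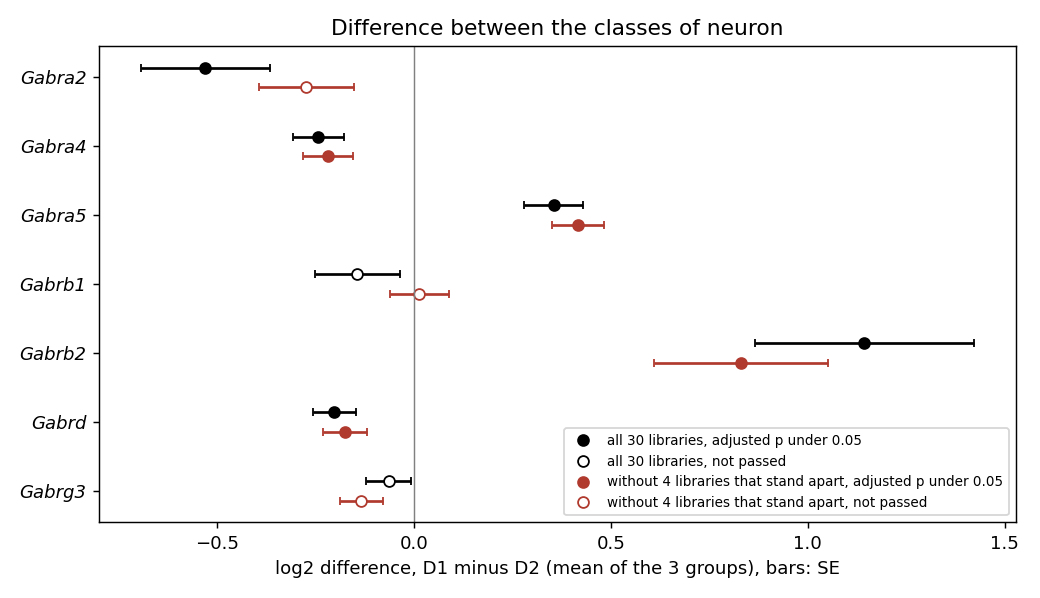
Log2 difference between D1 and D2 (mean of the 3 groups, bars are SE) for each subunit, with all 30 libraries in black and without 4 in red, filled where the adjusted p was under 0.05. Gabra5 and Gabrb2 lie to the right of 0 and Gabra4 and Gabrd to the left in both fits, while Gabra2 moves from -0.53 to -0.27 and is no longer filled.

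Within single groups fewer differences passed. In Control, 1 of the 7 passed, against 8.3% of all genes (3.51% higher in D1, 4.8% higher in D2). It was Gabra5, at 0.49 (log2, SE 0.131, 1.40-fold, edgeR adjusted p 0.0159). It missed the threshold without D1 Control replicate 3 (0.45, edgeR adjusted p 0.0526) or without D2 Control replicate 2 (0.44, edgeR adjusted p 0.0507). Gabrb2, whose Control groups did not overlap, differed by 0.91 (SE 0.480, edgeR adjusted p 0.306), and Gabrd by -0.25 (SE 0.0931, edgeR adjusted p 0.098). In Resilient none of the 7 passed by edgeR (DESeq2 called 0), against 6.65% of all genes (2.75% higher, 3.9% lower). An unadjusted edgeR p under 0.05 was found there for 2 of the 7 and for 15.2% of all genes. The largest difference there was that of Gabrb2, 0.46 (SE 0.477, edgeR adjusted p 0.831), and Gabra5 differed by 0.33 (SE 0.131, edgeR adjusted p 0.156).

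In Susceptible 4 of the 7 passed, against 23.9% of all genes (10.5% higher in D1, 13.4% higher in D2). Gabrb2 was higher in D1 by 2.06 (log2, SE 0.496, 4.18-fold, edgeR adjusted p 0.00407). Gabra2 (-1.15, SE 0.286, edgeR adjusted p 0.00518), Gabra4 (-0.34, SE 0.111, edgeR adjusted p 0.0259) and Gabrb1 (-0.55, SE 0.188, edgeR adjusted p 0.0338) were lower in D1. Without the 4 libraries 0 passed by edgeR, against 10.6% of all genes, and the differences were 1.04, -0.35, -0.24 and -0.09. A fit of only the groups compared also called 0. Leaving out D2 Susceptible replicate 1 alone ended the calls of Gabra4 (edgeR adjusted p 0.0873) and Gabrb1 (edgeR adjusted p 0.189), and Gabra5 then passed at 0.42 (edgeR adjusted p 0.0136). Without D2 Susceptible replicate 2, or without D1 Susceptible replicate 4 or 5, both Gabra4 and Gabrb1 were also lost (edgeR adjusted p 0.0816 to 0.172), and without D1 Susceptible replicate 2 Gabrb1 was (edgeR adjusted p 0.0673).

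Stress was examined within each class as Susceptible against Control, Resilient against Control and Susceptible against Resilient. None of the 7 subunits passed in any of these 6 comparisons by edgeR. The counts stand against 0% of all genes in the 3 D1 comparisons and in D2 Resilient against Control. They were 0.00516% in D2 Susceptible against Control and 0.0516% in D2 Susceptible against Resilient (0.0258% in each direction). Unadjusted p-values under 0.05 were found for 0, 0 and 1 of the 7 in D1 and for 3, 0 and 2 in D2, in the order of the comparisons above. Over all genes the shares were 2.40%, 2.60% and 3.49% in D1 and 15.7%, 4.20% and 19.1% in D2. DESeq2 called 0 in 5 of the 6 and Gabrb1 in D2 Susceptible against Resilient (adjusted p 0.0284). Comparisons of one class share libraries, so they are not independent of each other.

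In D1, the estimated changes of the subunits other than Gabrb2 were small. Their log2 differences lay between -0.15 and 0.11 in all 3 comparisons. The errors were wide for Gabra2 (SE 0.28) and Gabrb1 (SE 0.19), so these estimates do not show that the levels stayed the same. Over all 7 genes the median absolute difference was 0.10 in Susceptible against Control, 0.05 in Resilient against Control and 0.08 in Susceptible against Resilient. Over all genes tested, which were not matched to the subunits for level, it was 0.14, 0.12 and 0.13, above the subunits' median each time. Gabrb2 was 20.8 ± 1.66 CPM in Control, 19.9 ± 7.17 in Resilient and 40.1 ± 31.6 in Susceptible, where replicates 1 and 5 carried the higher mean. Its difference was 0.93 against Control (SE 0.480, edgeR adjusted p 1) and 0.99 against Resilient (SE 0.480, edgeR adjusted p 1). Without D1 Susceptible replicate 1 and the other 3 libraries the Susceptible mean was 27.2 ± 14.8 CPM (n = 4), and the differences were 0.40 against Control and 0.45 against Resilient. D1 Susceptible replicate 5 (49.0 CPM of Gabrb2) stayed in that fit. It had 9.03% of its reads outside genes and 5.46% of its gene counts on Gm42418, where no other library kept exceeded 2.49%.

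In D2 the differences with the smallest adjusted p-values were those of Gabra2 and Gabrb1 on chromosome 5. Gabra2 was 418 ± 85.2 CPM in Control, 411 ± 92.9 in Resilient and 720.2 ± 456 in Susceptible. Gabrb1 was 172 ± 29.4 CPM, 162 ± 18.9 and 247 ± 105 in the same order. By library Gabrb1 was 149, 153, 161, 221 and 179 CPM in Control, 191, 152, 146, 148 and 171 CPM in Resilient, and 368, 355, 150.03, 189 and 175 CPM in Susceptible. As for Gabra2, D2 Susceptible replicates 1 and 2 were the highest of the 15 D2 libraries, and the remaining 3 lay within the range of the other groups. Gabra2 differed by 0.79 from Control (log2, SE 0.284, edgeR adjusted p 0.201) and by 0.81 from Resilient (SE 0.284, edgeR adjusted p 0.123). Gabrb1 differed by 0.52 (SE 0.188, edgeR adjusted p 0.200) and by 0.61 (SE 0.188, edgeR adjusted p 0.0899).

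Gabrb2 differed in D2 by as much as Gabrb1 but with a wider error. It was 11.1 ± 4.37 CPM in Control, 14.5 ± 2.73 in Resilient and 9.46 ± 6.89 in Susceptible. Its difference was -0.61 in Susceptible against Resilient (log2, SE 0.480, edgeR adjusted p 0.507) and -0.03 without the 4 libraries. Against Control it was -0.22 in Susceptible (SE 0.479, edgeR adjusted p 0.849), which became 0.26 without the 4 libraries, and 0.39 in Resilient (SE 0.478, edgeR adjusted p 1.00), which became 0.29.

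The Gabra2 and Gabrb1 values rested on the same pair of libraries. Without the 4 libraries Gabra2 differed by -0.06 in both comparisons and Gabrb1 by -0.01 and 0.09, and the 3 remaining Susceptible libraries averaged 403 ± 73.8 CPM for Gabra2 and 171 ± 19.5 CPM for Gabrb1. In the other direction, leaving out D2 Susceptible replicate 3 made Gabra2 pass against Control (0.96, edgeR adjusted p 0.0439) and Resilient (0.99, edgeR adjusted p 0.0241). Gabrb1 then passed as well, at 0.65 (edgeR adjusted p 0.0408) and 0.75 (edgeR adjusted p 0.0131). Against Resilient both also passed without D2 Susceptible replicate 5, at 0.97 for Gabra2 (edgeR adjusted p 0.0349) and 0.71 for Gabrb1 (edgeR adjusted p 0.0239). All 8 epidermal markers were higher in this pair of libraries than in any of the other 28. The pair also had the highest summed oligodendrocyte markers (1923 and 1494 CPM over 8 genes) and oligodendrocyte precursor markers (337 and 340 CPM over 4 genes) of the 30. The oligodendrocyte list did not move together: its median log2 difference was -0.01 in D2 Susceptible against Control, and Opalin, a myelin marker, had 0 counts in replicate 1. Cspg5, a proteoglycan gene, made up most of the precursor sum at 320.3 and 319.8 CPM against at most 253 CPM elsewhere. The part of these in the subunit values was not tested.

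**Figure D3:**
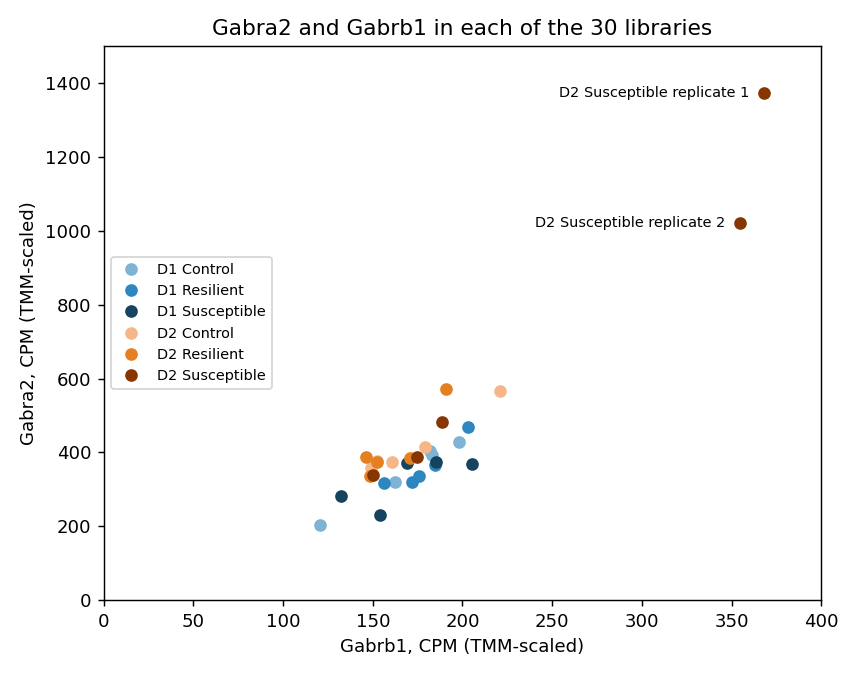
Gabra2 against Gabrb1 in each of the 30 libraries, both in CPM, coloured by group. D2 Susceptible replicates 1 and 2 lie at 1373 and 1019.95 CPM of Gabra2 with 368 and 355 CPM of Gabrb1, and the other 28 libraries stay at or below 573 CPM of Gabra2.

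The neighbour Gabra4 was 252 and 256 CPM in that pair of libraries, exceeded only by D2 Resilient replicate 1 at 260.2 CPM. All 5 D2 Susceptible libraries lay above all 5 D2 Control libraries for Gabra4 (199 to 256 against 181 to 192 CPM), though the difference of 0.28 did not pass (SE 0.111, edgeR adjusted p 0.221). Without the 4 libraries it was 0.15. The D2 Control values were close together (coefficient of variation 2.29%). In this comparison 15.7% of all genes had an unadjusted edgeR p under 0.05, and how many had groups that do not overlap was not counted. Other subunits did not stand out upward in the pair. Gabrd was 182 and 190.1 CPM, inside the 162 to 217 CPM of the other 13 D2 libraries. Gabrg3 was 64.1 and 69.1 CPM, below all of these 13 (76.4 to 96.5 CPM), and Gabrb2 was 1.42 and 5.83 CPM against 3.53 to 18.4 CPM. Gabra5 was split, at 52.5 CPM in replicate 1, above all 13, and 30.4 CPM in replicate 2.

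**Figure D4:**
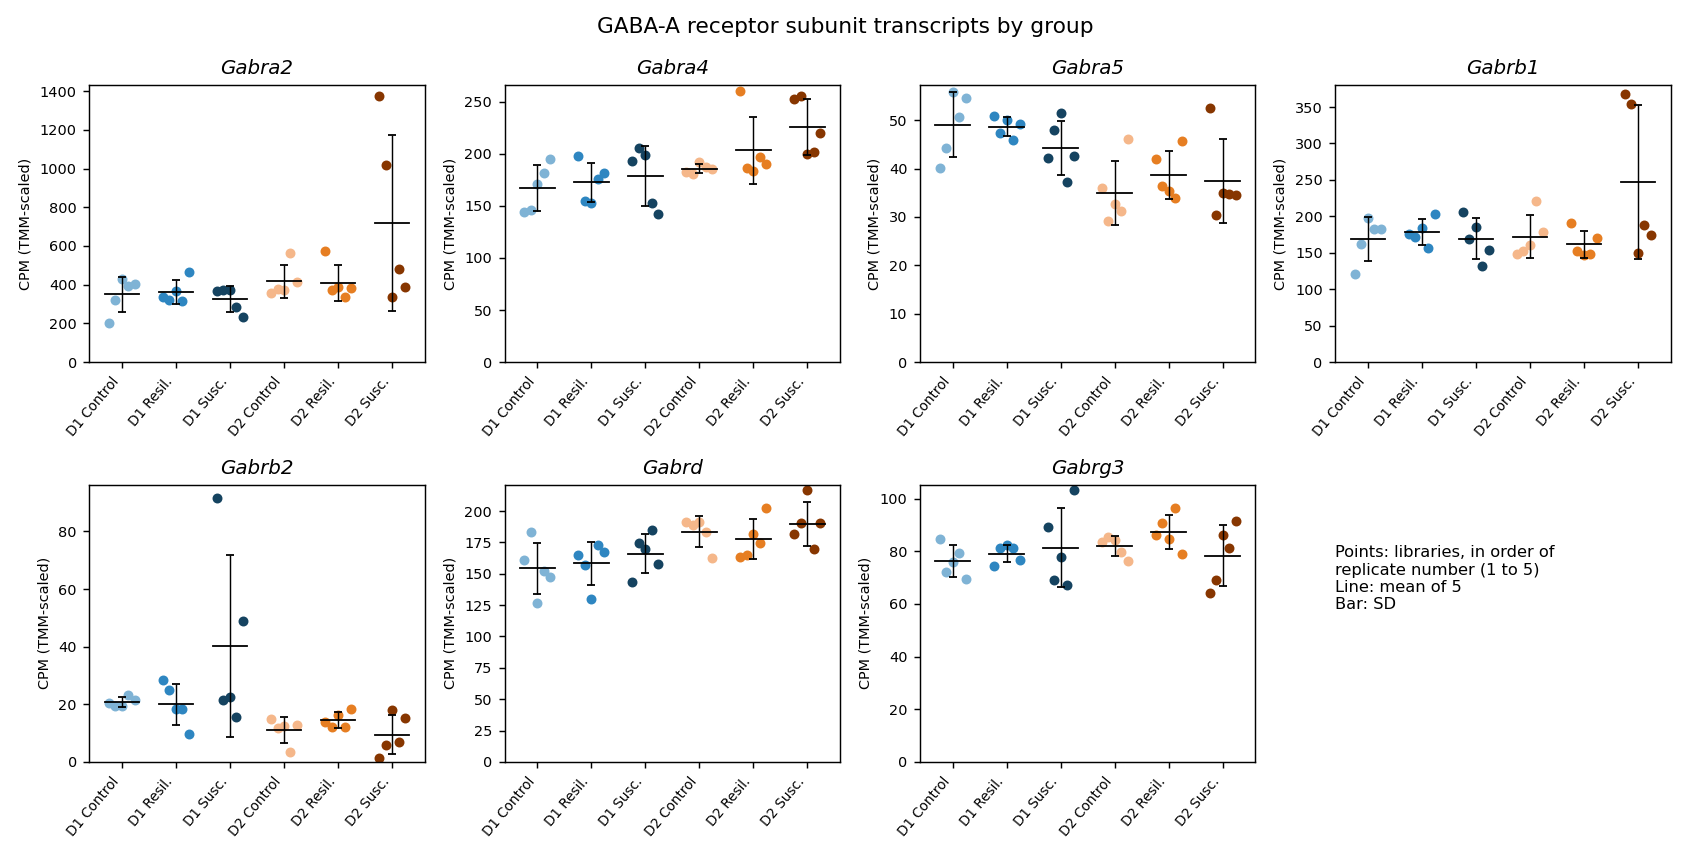
CPM of each subunit in the 6 groups, with a point per library in order of replicate number, the mean of 5 as a line and the SD as a bar. The high points of Gabra2 and Gabrb1 in D2 Susceptible are replicates 1 and 2, and the high Gabrb2 points in D1 Susceptible are replicates 1 and 5.

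Whether the classes differed in their stress change was tested as the D1 change minus the D2 change. For Susceptible against Control, Resilient against Control and Susceptible against Resilient, 0 of the 7 passed by edgeR, 0 by DESeq2, and 0% of all genes by edgeR. Unadjusted p-values under 0.05 were found for 1, 0 and 3 of the 7, and for 7.79%, 4.99% and 12.4% of all genes. The largest differences were those of Gabrb2, 1.60 in Susceptible against Resilient (SE 0.679, edgeR adjusted p 0.333), and of Gabra2, -0.96 (SE 0.400, edgeR adjusted p 0.328). Without the 4 libraries these were 0.48 (SE 0.556) and -0.14 (SE 0.309), both with an edgeR adjusted p of 1.00. With all libraries, for Gabrd the corresponding value was -0.03 (SE 0.132, edgeR adjusted p 0.952), the smallest of the 7.

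**Figure D5:**
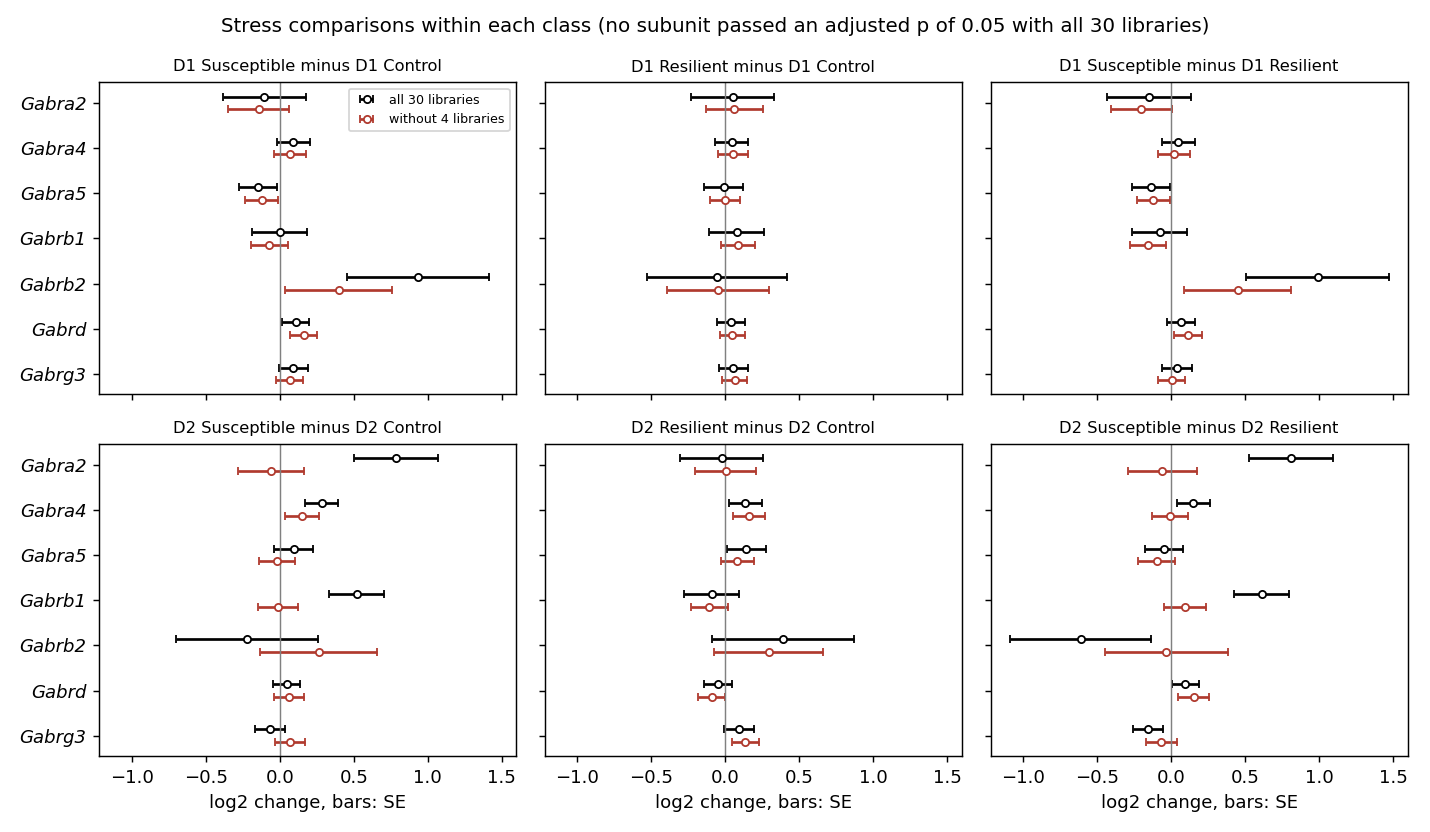
Log2 change (bars are SE) of each subunit in the 6 stress comparisons, with all 30 libraries in black and without 4 in red. Open points mark the absence of any call with all libraries, and Gabra2 in D2 Susceptible shifts most between the fits, from 0.79 against Control and 0.81 against Resilient to -0.06 in both. Gabrb1 in D2 Susceptible against Control moves from 0.52 to -0.01, and Gabrb2 in D2 Susceptible against Resilient from -0.61 to -0.03.

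Ordered by group means, neighbours rarely differed by more than the larger SD. For Gabra2, Gabra4 and Gabrd the 3 D2 groups came first and the 3 D1 groups last, and for Gabra5 the 3 D1 groups came first. For Gabra5 the step from the lowest D1 mean, 44.3 ± 5.59 CPM in Susceptible, to the highest D2 mean, 38.7 ± 4.97 CPM in Resilient, was just over 1 SD. It was the only such step for these 7 genes, and the ranges of its groups overlapped. The group means of Gabrg3 ran from 87.3 ± 6.61 CPM in D2 Resilient down to 76.2 ± 6.003 CPM in D1 Control. By library Gabrg3 was 67.3 to 103 CPM in D1 and 64.1 to 96.5 CPM in D2.

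Among further family members, Gabrg1, the gamma1 gene, was higher in D1 in the averaged comparison. It was 28.3 ± 2.30 CPM over D1 libraries and 22.1 ± 6.55 over D2 libraries (log2 0.37, SE 0.0990, edgeR adjusted p 0.00529), and the call also held without the 4 libraries. Gabra3 (0.12, edgeR adjusted p 0.125) did not pass. Gabre, Gabrq and Gabrr2 were near the floor of detection, with class means of 0.110 to 1.95 CPM, and did not pass either. Gabra6, Gabrp, Gabrr1 and Gabrr3 were set aside for low counts.

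Beyond the receptor itself, 40 genes of GABA and glycine signalling were listed and 39 tested. None passed in a stress comparison or in a difference between the D1 and D2 changes by edgeR. In the averaged class comparison 9 were higher in D1 and 5 lower, against 13.8% and 15.5% of all genes. Gabbr2, a subunit of the metabotropic GABA-B receptor, was 140.5 ± 16.6 CPM over D1 libraries and 86.0 ± 12.9 over D2 libraries (log2 0.71, edgeR adjusted p 5.43e-10). Glra2, a glycine receptor subunit, was 41.7 ± 7.76 against 18.0 ± 5.69 CPM (1.23, edgeR adjusted p 3.42e-09). In the other direction, Tspo, a mitochondrial protein of steroid-producing and glial cells, was 0.383 ± 0.226 against 2.11 ± 1.00 CPM (-2.44, edgeR adjusted p 1.52e-07). Akr1c14, an enzyme that makes neurosteroids, was 0.165 ± 0.173 against 2.20 ± 1.28 CPM (-3.98, edgeR adjusted p 4.20e-06). Tspo and Akr1c14 were near the floor of detection in D1, with lowest values of 0.0950 and 0 CPM. Akr1c14 also had 0 CPM in its lowest D2 library, so the sizes of these log2 differences are uncertain.

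By list, 4 of 13 genes for anchoring and accessory proteins of the receptor were higher in D1 (Shisa7, Iqsec3, Slitrk3 and Mdga1) and 1 lower (Rdx, which anchors alpha5 receptors outside synapses). Among the genes for GABA synthesis, transport and breakdown, the breakdown enzyme Abat was higher and the transporter Slc6a13 lower. Gad1 and Gad2, the enzymes that make GABA, did not pass. Of 5 GABA-B genes, 1 was higher and 1 lower (Kctd8), and of 4 genes for chloride transport 1 was higher (the kinase Stk39). Of 4 glycine receptor genes tested, 1 was higher, and of 5 for neurosteroid synthesis 2 were lower. The median log2 difference was 0.15, 0.12, -0.13, 0.00, 0.32 and 0.07 in the order of these lists, against -0.14 for the 7 subunits and 0.00 for all genes tested.

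The genes whose pattern over the 30 libraries was most like that of each subunit were found by the root mean square (RMS) difference of centred log2 CPM, among 10212 candidates. All values share the same libraries, depth and scaling, and nothing is said of a shared function. Gabra2, whose own RMS about its mean was 0.520, was nearest to Map9 (0.0936) and Nsrp1 (0.103). Gabrb1 (own RMS 0.332) was nearest to Pak3 (0.0799) and Gnaq (0.0947). Gabra4 (0.219) was nearest to AI593442 (0.0848) and Kcnd2 (0.0929), and Gabra5 (0.270) to Retreg1 (0.120) and Eps15 (0.130). Gabrd (0.171) was nearest to Camkv (0.0866) and Tsnax (0.102), and Gabrg3 (0.153) to Nedd4l (0.0937) and Usp48 (0.122). Gabrb2, with the widest own RMS of the 7 (1.05), was nearest to Prepl (0.458) and Fam120c (0.469). Without the 4 libraries Usp48 fell from place 2 to place 17 for Gabrg3, Eps15 to place 11 for Gabra5 and Tsnax to place 11 for Gabrd, while the other 11 partners stayed within the first 5. Among the 7 themselves, the smallest differences were 0.234 for Gabrd and Gabra4 and for Gabrd and Gabrg3. These exceeded the own RMS of all 3 genes, so neither pair was close. Gabra4 took place 2389 for Gabrd, and Gabrd place 1700 for Gabra4 and 2796 for Gabrg3. Gabra2 and Gabrb1 followed at 0.252, with Gabrb1 at place 203 for Gabra2 and Gabra2 at place 877 for Gabrb1. Gabra4 and Gabrb1 were at 0.257.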

How the data were processed

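Polyribosomes were immunoprecipitated by the HA tag, and SMART-Seq v4 libraries were made from 10 ng of RNA, per the labels' protocols. The authors deposited whole-number read counts per gene, not normalized. HISAT2, HTSeq and GRCm38 (mm10) are named in the submitters' processing notes. Their versions, and how strand was treated, are not given in the sources used. The series table matched the 30 files per library in all 30 columns. The 5 summary lines (10.1% to 53.3% of reads) stayed out of library sizes and tests.

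Symbols came from GENCODE M21 (55154 of 55335 genes) and promoters from RefSeq. Genes passing filterByExpr at its defaults (19368 tested, 35967 set aside) were given TMM scaling and a robust quasi-likelihood test (edgeR 4.0.16, R 4.3.3) in 1 model of 6 groups. Benjamini-Hochberg adjustment ran over all of them in each of 13 comparisons, with a threshold of 0.05. The test was tried on simulated data. CPM are computed from these counts and scaled library sizes. The alternatives used size factors or the Wald test of DESeq2 1.42.0, no filter, only the groups compared, a replicate block, limma 3.58.1 voom with quality weights, a fit without 4 libraries that stand apart, and fits with 1 library left out.

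The genes described, the lists and the libraries left out were chosen with earlier results of these data known. Named were the 7 subunits, other subunits tested (some family and pathway genes are not reported here), of the pathway lists any gene called in a stress comparison and the 2 with the smallest adjusted p in each direction between the classes, and the 2 genes most alike for each subunit (mean of at least 5 CPM). Nothing in the labels says that pools of a group were handled separately beyond pooling other mice, so p-values measure the spread between these libraries. The libraries carry no molecular identifiers.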

Additional observations from a re-analysis of the deposited data

Results flagged for a closer look

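Of 42 groups of 5 libraries (7 subunits in 6 groups), 6 held a library far from its nearest neighbour. The gap was over 0.71 of the range of the group, which about 1 in 20 independent groups of normal values would pass. The 42 groups share the same 30 libraries, and the share over all genes was not counted. The 6 are therefore not read as an excess. Gabra2 was 566 CPM in D2 Control replicate 4 and 573 CPM in D2 Resilient replicate 1, the highest of their groups. Gabra4 was also highest in D2 Resilient replicate 1, at 260.2 CPM. Gabra5 was 52.5 CPM in D2 Susceptible replicate 1, again the highest. Gabrb2 was lowest in D2 Control replicate 4, at 3.53 CPM, and Gabrd was lowest in D2 Control replicate 5, at 162 CPM. All 6 were in D2 groups.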

How the results depend on the processing

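The averaged class comparison called 5 subunits with all libraries and 4 or 5 under every alternative run, and 5 in each of 30 fits without 1 library. Voom with quality weights called Gabrg3 in place of Gabra2. In Control, the 1 call became 3 by voom and 2 without the 4 libraries, and 0 to 2 with 1 library left out. In Resilient, 0 became 1 (Gabra5) with only the groups compared, by voom, and without the 4 libraries. In Susceptible, 4 became 0 with only the groups compared, 2 by voom and 0 without the 4 libraries, and 2 to 4 with 1 library left out. The 2 by voom were Gabrb2 (adjusted p 0.0481) and Gabra5 (adjusted p 0.00327), and Gabra5 was not among the 4. Voom did not call Gabra2, Gabra4 or Gabrb1 (adjusted p 0.402, 0.332 and 0.951). The share of all genes called by voom is not given here. In D2, Susceptible against Control gave 0 to 2 with 1 library left out, and Susceptible against Resilient 1 by DESeq2 and 0 to 2 with 1 library left out. The cause of these shifts was not tested. No called subunit changed direction. Of 1890 subunit differences under an alternative, 26 lost a call, 17 gained one, and 78 had the opposite sign with no call in either fit. The averaged comparison uses all groups, so a fit of only the groups compared was not run for it.

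With the replicate number as a block, the averaged comparison called 5 subunits, Control 1, Resilient 0 and Susceptible 3 (Gabrb1 was lost), and the stress comparisons 0. Libraries with the same number did not deviate together: of 75 pairs across groups, 0 had a correlation over 0.1 (mean -0.00399), so the numbers were not taken to pair the libraries. Depth limits Gabrb2 most, at 66 counts in its lowest library.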
